A study of Drosophila melanogaster with 9 samples.

Results

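The Nimrod genes are a family of Drosophila genes for proteins with cysteine-rich repeats related to those of epidermal growth factor, several of which act in phagocytosis. They were taken here by name, as every gene deposited as nimA, nimB with a digit or nimC with a digit, whatever the case of the letters. That gave 8 genes of the 13140 with counts in all 9 libraries: nimA (FBgn0261514), nimB1 (FBgn0027929), nimB2 (FBgn0028543), nimB3 (FBgn0054003), nimB4 (FBgn0028542), nimB5 (FBgn0028936), nimC1 (FBgn0259896) and nimC2 (FBgn0028939). The reference annotation names 10 genes of the family, and the other two, NimC3 and NimC4, were not analysed here. All 8 genes passed the filter on low counts, and so belong to the 12913 genes tested.

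Messenger RNA of whole flies was sequenced in 3 groups of 3 libraries. All flies had the Canton S background, a wild-type genotype and an age of 10 to 11 days, and the 3 groups differed in descent. WT flies had no obese grandparent per the labels. GP/P and GP/M flies were the F2 of an obese grandfather. They descend from him by way of his son in GP/P and of his daughter in GP/M, and the labels mark that parent as heterozygous. Mutants of the receptor AKHR, which binds adipokinetic hormone, are named among the forebears in the series title, and the sources used here do not say how many flies went into a library. The comparisons ask whether transcript levels of genetically wild-type flies differ with the obesity of a grandfather, and with the parent through which they descend from him. Each experiment contributed 1 library per group, so the libraries that share a replicate number are called a set. Libraries held 21777434 to 28166388 counts, of which the 8 Nimrod genes took 0.0202% to 0.0232%. The labels used here give no sex. Levels are given as CPM, the counts of a gene scaled to the same library size in each library. Summed male accessory gland markers were at 2190 to 2524 CPM in the 9 libraries and eggshell and yolk markers at 17.7 to 27.8 CPM.

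In the fly, phagocytosis is the work of hemocytes, the blood cells, and above all of plasmatocytes, which take up bacteria and dying cells. NimC proteins and NimA are membrane proteins, and NimC1 is a receptor of plasmatocytes for bacteria. NimB proteins lack a membrane anchor and are secreted: NimB4 binds dying cells and helps phagocytes to clear them, and NimB5 is released by the larval fat body and restrains the number of blood cells when food is scarce. In whole-fly RNA, fewer cells of a type and less RNA per cell cannot be told apart. Some hemocyte markers were well present in these libraries, with Hml at 182 CPM, Pxn at 56.0 CPM and srp at 89.6 CPM on average. Others were low, with lz at 2.43 CPM, He at 0.599 CPM and CG42640 at 0.355 CPM.

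In the reference annotation (BDGP6) the 8 genes lie in 1 run on chromosome arm 2L, in the order nimA, nimB1, nimB2, nimB3, nimB4, nimB5, nimC1 and nimC2. He, itself a hemocyte gene, sits between nimB5 and nimC1, and Cyp28a5, a cytochrome P450 gene, between nimC1 and nimC2. The exons of nimB1 and nimB2 overlap on opposite strands by 77 bases, those of nimB5 and He by 78 bases, and those of nimC2 and rk, a hormone receptor gene, by 527 bases. The sources used here do not say whether the authors counted by strand, so reads from the shared bases cannot be told apart. The level of rk was 1.57 CPM on average (1.28 to 2.02 CPM). Average levels were 122 CPM for nimB2 and 7.70 CPM for nimB1, and 17.9 CPM for nimB5 and 0.599 CPM for He. How much of the nimB1 count comes from bases shared with nimB2 was not tested. This limit holds for the level, the rank and the set values of nimB1 below. No coordinates are printed because the counts were made on another build.

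Levels within the family were compared per length, as CPM per kilobase of annotated exon. The secreted protein gene nimB2 led, with a mean of 84.9 CPM per kilobase, and made up 61.1% of the family's summed level per length (59.0% to 63.3% over the 9 libraries). It was followed by nimB5 at 12.9, the receptor gene nimC1 at 11.8, nimB3 at 10.7, nimB4 at 8.42, nimB1 at 5.97, nimC2 at 2.48 and nimA at 1.77 CPM per kilobase. Among all tested genes with an exon length, nimB2 stood at percentile 89.9, nimB5 at 50.03 and nimA at 11.9.

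The order was the same in most libraries. The gene nimB2 was the highest in 9 of 9 libraries, at 6.60 times nimB5, with no overlap of their ranges. From nimB5 to nimB4 the ranges of neighbours overlapped. On average nimB5 was 1.09 times nimC1, and it exceeded nimC1 in 9 of 9 libraries. In turn nimC1 was 1.10 times nimB3 and above it in 6 of 9 libraries, and nimB3 was 1.27 times nimB4 and above it in 9 of 9. In all 3 libraries of set 1 nimB3 stood above nimC1, and in GP/M 1 also above nimB5. Below them, nimB4 exceeded nimB1 by 1.41 times, nimB1 exceeded nimC2 by 2.40 times and nimC2 exceeded nimA by 1.4 times, in 9 of 9 libraries each and without overlapping ranges. The membrane protein genes nimC2 and nimA were thus the 2 lowest of the family per length in every library.

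**Figure D1:**
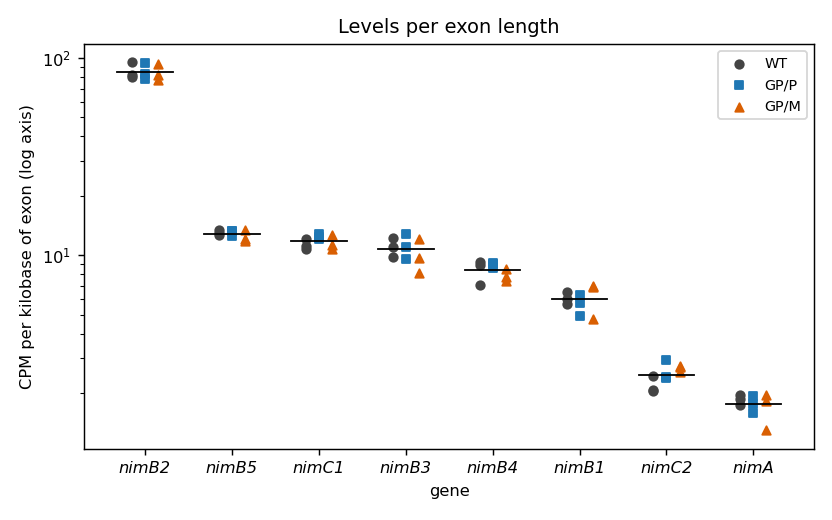
Level of each Nimrod gene in CPM per kilobase of exon (log axis) in the 9 libraries, with points for libraries (marker by group) and a line for the mean of all 9. The mean of nimB2, 84.9, lies far above that of nimB5, 12.9, while the points of nimB5, nimC1, nimB3 and nimB4 overlap between neighbours.

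The genes differed in how steady they were. The blood cell regulator gene nimB5 varied least, with a coefficient of variation of 4.70% over the 9 libraries where read counting alone gives 4.75%. The coefficient for nimB2 was 8.41% against 1.82% from counting, and that for nimC1 6.77% against 3.23%. The other 5 genes varied by 9.67% to 14.2%, with 5.68% to 8.99% from counting, so their single values carry more counting error.

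No Nimrod gene passed an adjusted p of 0.05 in any comparison of the groups by edgeR's quasi-likelihood test, and neither did any of the 12913 genes (0% called in each). The same count of 0 came from DESeq2 and from limma-voom. At an unadjusted p under 0.05, edgeR gave 1 Nimrod gene for GP/P against WT, where 2.59% of all genes were at that level, 1 for GP/M against WT (1.53%) and 0 for GP/P against GP/M (1.70%). DESeq2 gave 0, 1 and 0 Nimrod genes in the same order, as did limma-voom, and the shares of all genes by these tools are not given here. In these fits, which ignore the sets, the gene was nimC2 each time. With the set as a block, edgeR gave 2 Nimrod genes at that level for GP/P against WT (nimC1 and nimC2, with 6.85% of all genes), 1 for GP/M against WT (nimC2, 3.50%) and 1 for GP/P against GP/M (nimB4, 4.58%), and again none passed an adjusted p of 0.05. Both comparisons with WT use the same 3 WT libraries.

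The gene nimC2 codes for a Nimrod membrane protein whose function is less well described than that of NimC1. Its level was 5.78, 6.90 and 5.85 CPM in WT 1, 2 and 3. In GP/P it was 6.77, 8.34 and 6.73 CPM, and in GP/M 7.22, 7.76 and 7.61 CPM. Each GP/P and GP/M library was above the WT library of its own set. The share of all genes with this pattern is not given here, and both groups meet the same WT libraries. The group ranges of GP/P and WT overlapped, because WT 2 was above GP/P 1 and GP/P 3. All 3 GP/M libraries were above all 3 WT libraries, as for 2.37% of all genes.

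Against WT, nimC2 was at 1.18-fold in GP/P, with a 95% interval of 1.00 to 1.39 (log2 0.24, SE 0.11, adjusted p = 0.9997 by edgeR). In GP/M it was at 1.22-fold of WT, with an interval of 1.03 to 1.44 (log2 0.28, SE 0.11, adjusted p = 1 by edgeR). Within sets 1, 2 and 3 the log2 difference of nimC2 was 0.23, 0.27 and 0.20 for GP/P and 0.32, 0.17 and 0.38 for GP/M. With the set as a block the intervals were 1.03 to 1.35 for GP/P and 1.07 to 1.4 for GP/M against WT (unadjusted p = 0.0211 and 0.0061, adjusted p = 0.695 and 0.999 by edgeR). GP/P and GP/M differed from each other by 0.97-fold (0.83 to 1.13). Without GP/P 2 the log2 value of GP/P against WT was 0.12. In the authors' deposited table nimC2 had an unmoderated log2 fold change of 0.23 for GP/P and 0.29 for GP/M against WT, each with an adjusted p of 0.9999.

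The bacterial receptor gene nimC1 was at 35.3, 39.7 and 36.7 CPM in WT, at 39.9, 42.1 and 40.6 CPM in GP/P and at 35.5, 41.8 and 37.1 CPM in GP/M, in the order of sets 1 to 3. GP/P libraries were all above WT libraries, though GP/P 1 exceeded WT 2 by little, and 4.07% of all genes had such a gap in that direction. GP/M values were spread over the range of both other groups. The fold of nimC1 was 1.10 for GP/P against WT (0.99 to 1.22), 1.02 for GP/M against WT (0.92 to 1.13) and 1.07 for GP/P against GP/M (0.97 to 1.19), and none passed the test. With the set as a block the interval for GP/P against WT was 1.02 to 1.18 (unadjusted p = 0.0139, adjusted p = 0.671 by edgeR). For GP/P against GP/M the unadjusted p with the block was 0.051 (adjusted p = 0.952 by edgeR).

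The third membrane protein gene, nimA, whose product resembles the engulfment receptor Draper in domain makeup, was at 5.03, 5.40 and 5.66 CPM in WT. It was at 4.56, 5.05 and 5.55 CPM in GP/P and at 3.73, 5.26 and 5.62 CPM in GP/M. The lowest value was that of GP/M 1, and the 3 groups overlapped. The fold of nimA was 0.95 for GP/P (0.77 to 1.17) and 0.91 for GP/M (0.73 to 1.12) against WT.

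The most abundant gene, nimB2, was at 136, 114 and 118 CPM in WT, at 135, 112 and 119 CPM in GP/P and at 134, 118 and 111 CPM in GP/M. The libraries of set 1 were the highest in every group, and the groups overlapped throughout. Its fold was 0.99 for GP/P (0.86 to 1.14) and 0.98 for GP/M (0.86 to 1.13) against WT. With the set taken into account as a block, the intervals of nimB2 were 0.94 to 1.05 and 0.93 to 1.04.

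The gene of the dying-cell bridging protein, nimB4, was at 13.7, 13.2 and 10.4 CPM in WT, at 13.3, 12.8 and 13.5 CPM in GP/P and at 12.7, 10.9 and 11.5 CPM in GP/M. All GP/P libraries were above all GP/M libraries, as for 3.68% of all genes in that direction, while WT spanned both. The fold of nimB4 for GP/P against GP/M was 1.13 (0.97 to 1.31, unadjusted p = 0.0978, adjusted p = 0.9996 by edgeR). With the set as a block its interval was 1.003 to 1.28 (unadjusted p = 0.0453, adjusted p = 0.952 by edgeR).

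The gene nimB5 was at 18.2, 18.8 and 17.8 CPM in WT, at 18.6, 18.6 and 17.5 CPM in GP/P and at 16.5, 18.7 and 16.9 CPM in GP/M. GP/M 1 and GP/M 3 were the 2 lowest libraries, and GP/M 2 was within the range of WT. Its fold against WT was 1.00 for GP/P (0.90 to 1.10) and 0.95 for GP/M (0.86 to 1.05). Of the remaining secreted protein genes, nimB1 was at 0.93-fold in GP/P and 1.03-fold in GP/M against WT, and nimB3 at 1.01-fold and 0.91-fold, with overlapping groups.

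Over the family, 4 genes lay above and 4 below WT in GP/P, with a median log2 fold change of 0.0031 against 0.0028 for all genes, 51.8% of which lay above WT. In GP/M 3 lay above and 5 below WT, with a median of -0.049 against 0.0025 for all genes, 51.7% of which lay above WT. For GP/P against GP/M 6 lay above and 2 below, with a median of 0.065 against 0.0018 for all genes, 51.0% of which lay above GP/M. With single libraries left out, the median ranged from -0.037 (without WT 3) to 0.084 (without WT 1) for GP/P and from -0.073 (without WT 3) to -0.0072 (without WT 1) for GP/M. The 95% intervals of the 8 folds together spanned 0.76 to 1.39 for GP/P against WT, 0.72 to 1.44 for GP/M against WT and 0.74 to 1.39 for GP/P against GP/M. In the authors' deposited table the adjusted p was 0.9999 for every Nimrod gene in each comparison, while 0 genes of the whole table were under 0.05 for GP/P against WT, 4 for GP/M against WT and 1 for GP/P against GP/M.

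**Figure D2:**
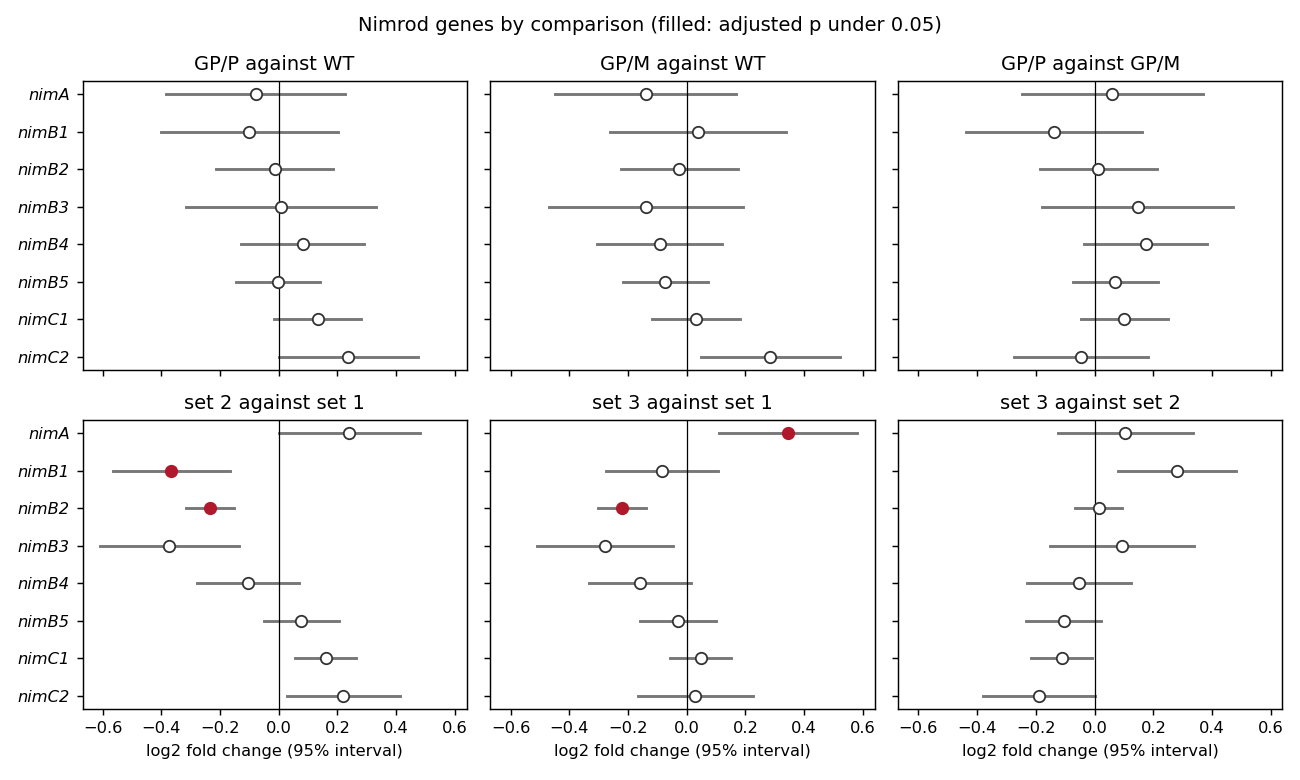
Log2 fold change of each Nimrod gene (point) with its 95% interval (line) in the 3 comparisons of groups (upper row) and of sets (lower row); filled points have an adjusted p under 0.05 by edgeR. No point is filled in the upper row, nimB2 and nimB1 are filled below 0 for set 2 against set 1, and nimB2 below and nimA above 0 are filled for set 3 against set 1.

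For most of the family the sets differed more than the groups. The set accounted for a median of 59.2% of the variance of the 8 genes in log2 CPM, and the group for 20.9%; over all tested genes these medians were 41.5% and 14.9%. For nimB2 the set accounted for 91.1% and the group for 0.83%. The gene nimC2 was the reverse, with 34.2% between sets and 56.7% between groups, and nimB4 had 27.5% and 28.4%.

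**Figure D3:**
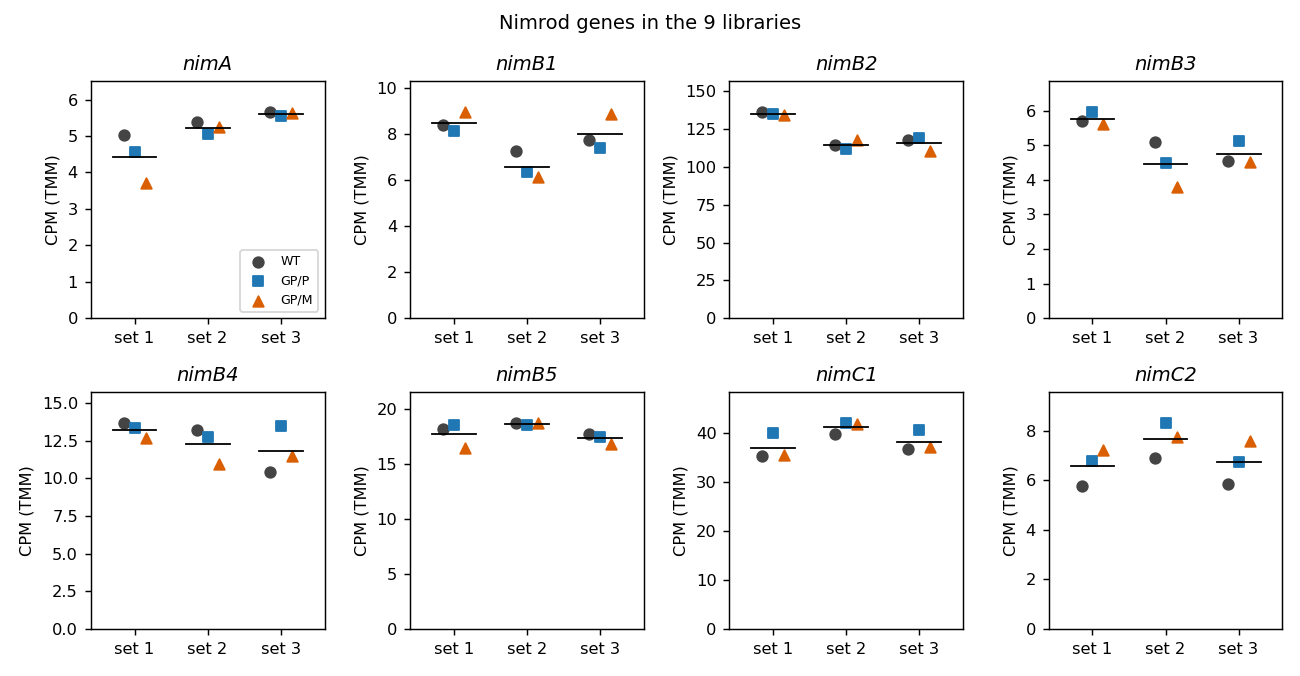
Level of each Nimrod gene in CPM (vertical axis, scaled by TMM) in the 9 libraries, placed by set, with a marker for each group and a black bar for the mean of the set. For nimB2 the 3 libraries of set 1, at 134 to 136 CPM, lie above the other 6, at 111 to 119 CPM; for nimC2 the WT library is the lowest of each set.

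The smallest adjusted p of the family in both comparisons with set 1 was that of nimB2. Its 3 libraries of set 1 were at 136, 135 and 134 CPM, those of set 2 at 114, 112 and 118 CPM and those of set 3 at 118, 119 and 111 CPM, in the order WT, GP/P and GP/M. Set 1 did not overlap with either of the other sets, and sets 2 and 3 overlapped with each other. The level fell in set 2 to 0.85-fold of set 1 (0.80 to 0.90, log2 -0.23, SE 0.039, adjusted p = 0.00187 by edgeR with the group as a term). In set 3 it fell to 0.86-fold of set 1 (0.81 to 0.91, log2 -0.22, SE 0.039, adjusted p = 0.00077 by edgeR). Set 3 against set 2 gave 1.01-fold (0.95 to 1.07). Both calls of nimB2 held in every alternative run, with an adjusted p up to 0.0424.

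Of all genes, 2.47% were called in set 2 against set 1 (0.984% lower), 18.7% in set 3 against set 1 (11.7% higher, 6.92% lower) and 5.92% in set 3 against set 2. Against these shares stand 2, 2 and 0 of the 8 Nimrod genes. The 0 for set 3 against set 2 was the count by edgeR, with 3 genes at an unadjusted p under 0.05 where 22.7% of all genes were. By limma-voom 0 were called as well, with 2 at that level, and the share of all genes by that tool is not given here. DESeq2 called 0 of the 2 genes to which it gave an adjusted p.

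The second gene that fell was nimB1, the overlapping neighbour of nimB2, with which it shares bases whose reads cannot be told apart. In the order WT, GP/P and GP/M it was at 8.40, 8.14 and 8.96 CPM in set 1, at 7.28, 6.35 and 6.12 CPM in set 2 and at 7.73, 7.41 and 8.87 CPM in set 3. Set 2 lay below both other sets without overlap, and sets 1 and 3 overlapped. Its fold for set 2 against set 1 was 0.78 (0.68 to 0.89, log2 -0.37, SE 0.095, adjusted p = 0.0463 by edgeR). This call rests on several libraries: the adjusted p by edgeR was 0.0935 without WT 1, 0.14 without GP/P 1, 0.142 without GP/P 2, 0.0539 without GP/P 3, 0.195 without GP/M 1 and 0.277 without GP/M 2, and 0.0725 by limma-voom. For set 3 against set 2 nimB1 was at 1.22-fold (1.06 to 1.4) with an adjusted p of 0.0861 by edgeR, and for set 3 against set 1 at 0.94-fold (0.83 to 1.08).

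The gene that rose was nimA. It was at 5.03, 4.56 and 3.73 CPM in set 1 (WT, GP/P, GP/M), at 5.40, 5.05 and 5.26 CPM in set 2 and at 5.66, 5.55 and 5.62 CPM in set 3. All libraries of set 3 were above all of sets 1 and 2, and GP/M 1 was the lowest of the 9. Its fold for set 3 against set 1 was 1.27 (1.08 to 1.5, log2 0.34, SE 0.11, adjusted p = 0.0392 by edgeR). Without GP/M 1 the log2 value of nimA was 0.23 with an adjusted p of 0.245 by edgeR. The call was also lost when WT 3 was left out (adjusted p = 0.0595), and likewise for GP/P 1 (0.0662), for GP/P 2 (0.0522), for GP/P 3 (0.097) and for GP/M 3 (0.183), all by edgeR, and by limma-voom (0.0501). DESeq2 gave no adjusted p for nimA or nimB1 in these comparisons.

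The other 5 genes passed in no comparison of sets. The secreted protein gene nimB3 followed the direction of nimB2, at 5.70, 5.96 and 5.63 CPM in set 1, 5.10, 4.47 and 3.79 CPM in set 2 and 4.56, 5.12 and 4.53 CPM in set 3. Set 1 was above the other sets without overlap, and its folds were 0.77 for set 2 (0.66 to 0.91, adjusted p = 0.0997 by edgeR) and 0.82 for set 3 (0.70 to 0.97, adjusted p = 0.0873 by edgeR). The receptor gene nimC1 was highest in set 2, at 1.12-fold of set 1 (1.04 to 1.2, adjusted p = 0.107 by edgeR) and with set 3 at 0.92-fold of set 2 (0.86 to 0.99). The gene nimC2 was at 1.16-fold in set 2 against set 1 (1.02 to 1.33) and at 0.88-fold in set 3 against set 2 (0.77 to 1.00). For nimB4 the folds against set 1 were 0.93 and 0.90 in sets 2 and 3, and for nimB5 they were 1.05 and 0.98.

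The libraries of the 2 groups compared did not overlap for 2 Nimrod genes in the higher and 3 in the lower direction in set 2 against set 1, where 10.4% and 8.92% of all genes did so. In set 3 against set 1 there were 1 and 2 (18.4% and 17.0% of all genes), and in set 3 against set 2 there were 2 and 1 (14.7% and 14.0%). The summed level of the family was 228, 232 and 224 CPM in set 1 (WT, GP/P, GP/M), 211, 210 and 212 CPM in set 2 and 207, 215 and 203 CPM in set 3. Without nimB2 the sum was 88.7 to 97.6 CPM and the sets overlapped, so the step of the family sum was that of nimB2. Beside these values, summed hemocyte markers were at 1102 to 1245 CPM in set 1, 1216 to 1260 in set 2 and 1268 to 1377 in set 3. Summed fat body markers were at 2790 to 2854, 3045 to 3158 and 3486 to 4031 CPM and summed neuron markers at 818 to 863, 847 to 881 and 931 to 983 CPM in the same order. Summed muscle markers were at 3838 to 4249, 4022 to 4139 and 4314 to 4388 CPM. Other sums overlapped between all sets: glia markers were at 1564 to 1588, 1548 to 1584 and 1507 to 1599 CPM. Male accessory gland markers were at 2190 to 2471, 2343 to 2524 and 2270 to 2374 CPM. Single genes weigh heavily in such sums. Among fat body markers Rfabg and Lsp2 were at 2435 and 773 CPM on average, and Fbp2 and Lsp1gamma at 0.340 and 1.05 CPM. Among hemocyte markers the means of sets 1 and 3 were 156 and 210 CPM for Hml and 274 and 340 CPM for Ppn. Of the 14 hemocyte markers 11 lay above and 3 below 0 in log2 for set 3 against set 1. The part of these markers in the set differences was not tested.

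Genes of the same process outside the family were set beside it in set 3 against set 1, where the most genes were called. Of 11 other phagocytosis receptor genes 5 rose and none fell, where 11.7% of all genes were called higher and 6.92% lower, with a median log2 fold change of 0.13 against -0.057 for the Nimrod genes and -0.0069 for all genes. They were betaInt-nu, an integrin subunit, at 1.34-fold (adjusted p = 0.000245), its partner subunit scb at 1.17-fold (0.0355), the bacterial receptor gene eater, itself with Nimrod-type repeats, at 1.36-fold (0.00144), the engulfment receptor gene drpr at 1.13-fold (0.00469) and the CD36-like receptor gene crq at 1.12-fold (0.00402), all by edgeR. The other 6 were pes at 1.10-fold, the scavenger receptor genes Sr-CI at 1.04-fold, Sr-CII at 1.01-fold and Sr-CIV at 0.90-fold, emp at 1.02-fold and the peptidoglycan receptor gene PGRP-LC at 1.02-fold. Without GP/M 1 the count was 3, with drpr at an adjusted p of 0.0508 and scb at 0.15 by edgeR. The call of scb was also lost without WT 1 (0.188), WT 3 (0.0625) and GP/M 3 (0.16), and with no group term in the fit (0.124), where 4 receptor genes were called.

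Library values are given for eater and betaInt-nu, the called receptor genes with the largest folds. The gene eater was at 7.45, 7.29 and 7.22 CPM in set 1 (WT, GP/P, GP/M), at 8.58, 9.56 and 8.53 CPM in set 2 and at 9.07, 10.5 and 10.2 CPM in set 3, and set 1 was below the other sets without overlap. The gene betaInt-nu was at 24.7, 27.3 and 22.4 CPM in set 1, 28.9, 31.6 and 27.5 CPM in set 2 and 31.9, 32.7 and 34.8 CPM in set 3. It too was lowest in set 1, in which nimB2 was highest. The mean of crq was also lowest in set 1, at 153, 169 and 171 CPM in sets 1, 2 and 3. In contrast, drpr (99.3, 100 and 112 CPM) and scb (56.5, 56.3 and 66.2 CPM) had close means in sets 1 and 2.

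Listed here under thioester proteins, a family with members that coat microbes in the way of complement, were 5 genes. Of these 3 rose in set 3 against set 1, where 11.7% of all genes were called higher. They were TepII at 1.24-fold (adjusted p = 0.00202), TepIV at 1.16-fold (0.000408) and Mcr at 1.17-fold (0.000753), all by edgeR. TepIII was at 1.08-fold and TepI at 0.80-fold, and neither passed. Of 15 genes listed here under engulfment machinery 4 rose. They were mbc, an exchange factor for Rac, at 1.2-fold and the GTPase gene Rac2 at 1.16-fold. The others were jp at 1.14-fold and SCAR, an activator of actin branching, at 1.10-fold. Of 14 hemocyte markers 3 rose: Hml, the clotting protein gene hemolectin, at 1.35-fold, the matrix gene Ppn at 1.24-fold and the growth factor receptor gene Pvr at 1.13-fold. No gene of these 3 lists fell. The counts of 4 of 15 and 3 of 14 stand beside the same 11.7% of all genes. Apart from mbc and Hml, the engulfment genes and hemocyte markers were chosen for naming after their values were seen. The count of engulfment genes was 2 without WT 3 and that of hemocyte markers 1 without WT 1. Whether the Nimrod genes differ from these lists was not tested. In set 3 against set 1, 6 of 7 neuron markers, 2 of 4 fat body markers and 2 of 7 muscle markers were also called higher. Of 5 eggshell and yolk markers 1 was called higher, and of 6 glia and 6 male accessory gland markers 0 were called. A rise in set 3 was thus not particular to genes of phagocytosis.

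**Figure D4:**
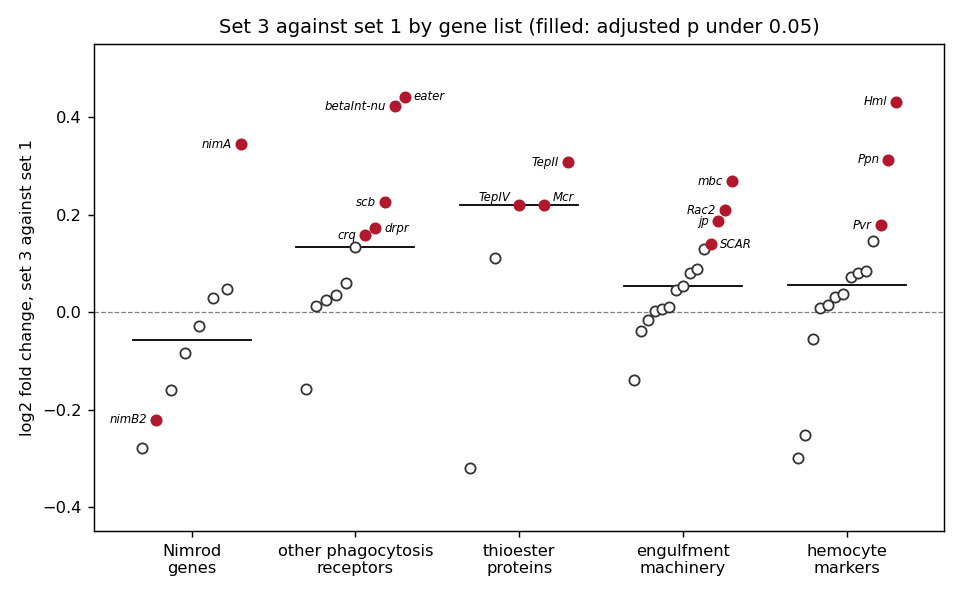
Log2 fold change of set 3 against set 1 (vertical axis) for each gene of 5 lists, sorted within a list, with filled and named points for genes with an adjusted p under 0.05 by edgeR and a line at the median of the list. Among the Nimrod genes 1 filled point lies above and 1 below 0, while all filled points of the other lists lie above 0.

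In set 3 against set 2, where 4.31% of all genes were called higher, drpr was called among the receptors and TepII among the thioester proteins. The other calls were mbc, Rac2 and jp in the engulfment list and the hemocyte markers Hml and Pvr. All of these were higher in set 3. Those 4 counts were all 0 without GP/M 2 or without GP/M 3, and they depended on other libraries too: without GP/P 2 the engulfment count was 1 and the others 0, without WT 3 the thioester and engulfment counts were 0, and without GP/M 1 the thioester count was 0. Without WT 3 or GP/M 1 the hemocyte count was 1, without WT 2 the engulfment count was 1 and the receptor count 2, and without GP/P 3 the receptor count was 3. The engulfment count was 1 by DESeq2 and by limma-voom, and the receptor count was 2 by DESeq2. In set 2 against set 1, where 1.49% of all genes were called higher, the receptor genes crq and betaInt-nu and the thioester protein gene TepIV were called, all higher in set 2. Both counts were 0 without WT 1, WT 2, GP/P 2, GP/M 1 or GP/M 2, and the receptor count also without GP/P 1, by DESeq2 and by limma-voom. The receptor count was 1 without GP/P 3 or GP/M 3, with RLE size factors, with the filter of at least 1 CPM in 3 libraries and with no group term. In the comparisons of groups no gene of the 4 lists was called by edgeR. Their medians in log2 for GP/P and GP/M against WT were 0.0031 and -0.0073 for the receptors and 0.056 and 0.062 for the hemocyte markers. They were 0.014 and -0.030 for the thioester proteins and -0.022 and -0.0011 for the engulfment genes, against 0.0028 and 0.0025 for all genes. Among the receptors Sr-CIV, at 1.44 CPM on average, lay below WT without overlap in both groups (log2 -0.44 and -0.39). So did 570 genes of the 12913 in GP/P and 327 in GP/M.

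Finally, the genes whose log2 CPM followed each Nimrod gene most closely over the 9 libraries were taken from all tested genes. These correlations are a description, since the libraries share experiments and the best of all tested genes was picked. The nearest gene was olf186-F for nimB4 (Pearson r 0.99, Spearman rho 0.95), CG16926 for nimB2 (0.98, 0.93), itp for nimB1 (0.96, 0.90), CG10469 for nimA (0.96, 0.87), Flo-1 for nimC1 (0.95, 0.92), CG30493 for nimB3 (0.94, 0.82) and CG13667 for nimB5 (0.93, 0.97). For nimC2 the nearest were CG13096 (0.95, 0.92), CG10359 (0.95, 0.95), mir-2495 (0.94, 0.92), CG42382 (0.93, 0.93) and CG10262 (0.92, 0.92). None of these was another Nimrod gene. Within the family the closest pairs by Pearson r were nimB2 with nimB3 (0.75) and nimB3 with nimB4 (0.74), and the most opposed were nimB1 with nimC1 (-0.85).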

How the data were processed

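RNA of whole flies was extracted with Trizol, and libraries were made from polyA RNA with a TruSeq kit, per the labels' protocols. The authors deposited raw read counts per gene in 3 tables, 1 per pair of groups, per the file headers. Beside them stand the authors' log2 fold changes, moderated and unmoderated, and the authors' p-values, plain and adjusted, which are quoted as deposited. The tables' 18 columns of signal, read counts that the authors divided by a size factor per the file headers, were left unused. The submitters' processing notes name Novoalign, DESeq and dm3 without versions. The treatment of strand and of multiply mapped reads is not stated in the sources used here.

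Columns were matched to samples by the library code in both. A library's counts did not differ between tables (0 values), and 13140 genes had counts in all 9 libraries. The chi-square statistic of a library pair was at least 3.28 per gene (mean count of 50 or more), so every pair differed by more than counting noise.

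The counts went into edgeR 4.0.16 in R 4.3.3, with TMM, filterByExpr by group and a robust quasi-likelihood F-test over all 9 libraries. Group comparisons had no covariate, and set comparisons had the group as a term. Called means an adjusted p under 0.05 (Benjamini-Hochberg over all tested genes). The standard error is the log2 fold change divided by the root of F, and gives the 95% interval. Levels are TMM-scaled CPM; a prior count of 2 was used for log2 CPM. Exon lengths were those of the BDGP6 annotation, which holds 96.1% of the tested genes. Replicate numbers were taken to pair libraries, since the design text ties samples to experiments and column names share a code within a set. As a check, deviations from group means correlated at 0.066 to 0.29 within sets (8 of 9 pairs over 0.1) and at -0.27 to 0.027 between sets. Deviations cancel out within a group, so low values between sets follow from positive ones within sets and are no separate check. Totals of 21777434 to 28166388 counts per library and 3 libraries per group set the precision.

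Alternatives were DESeq2 1.42.0, limma-voom (limma 3.58.1), RLE scaling, other filters on low counts, the replicate block, only the groups compared, no group term, library totals and leaving out each library. Those for the 4 related lists and for single receptor and thioester genes were added after seeing the data. Protein and promoter features were not analysed here. The scripts were tested on simulated data. Members and gene lists (80 of 88 list genes matched) were chosen with earlier results of these data known. By rule, the text names every Nimrod, receptor and thioester gene, in other lists the gene with the smallest p, the gene nearest to each Nimrod gene (5 for nimC2) and the genes between them on the chromosome. The further engulfment genes, hemocyte markers and fat body markers were named after their values were seen.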

Additional observations from a re-analysis of the deposited data

How the results depend on the processing

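Of 297 results of single Nimrod genes under alternatives other than leaving out a library, 294 kept their direction and their side of the threshold. The exceptions were the calls of nimB1 (set 2 against set 1) and nimA (set 3 against set 1), which were lost with limma-voom, where 1 Nimrod gene was called in each of these comparisons, and nimB3 for GP/P against WT, at log2 -0.00053 with limma-voom instead of 0.0088. The cause was not tested. DESeq2 gave an adjusted p to 4, 3 and 2 Nimrod genes in set 2 against set 1, set 3 against set 1 and set 3 against set 2, so the others have no call there. With the replicate number as a block (paired analysis), 0 genes passed in each group comparison, as without it, and it changed no call of a Nimrod gene; at an unadjusted p under 0.05 there were 885, 452 and 592 genes for GP/P with WT, GP/M with WT and GP/P with GP/M, instead of 334, 198 and 220. Of all genes, DESeq2 called 1379 in set 3 against set 1 and 456 in set 3 against set 2, from fewer genes with an adjusted p, instead of 2409 and 764. RLE size factors moved the median of all genes by at most 0.0048 in log2 and gave 173 higher and 129 lower genes in set 2 against set 1 (192 and 127 with TMM).

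When each library was left out in turn, the number of genes called ranged from 0 to 1 in each group comparison, from 112 to 417 in set 2 against set 1 (319 with all; 177 without WT 1, 190 without WT 2, 112 without GP/P 2, 167 without GP/M 1, 125 without GP/M 2), from 1256 to 2456 in set 3 against set 1 (2409 with all; 1343 without WT 1, 1471 without WT 3, 1499 without GP/M 1, 1256 without GP/M 3) and from 49 to 1150 in set 3 against set 2 (764 with all; 1150 without WT 1, 473 without WT 3, 155 without GP/P 2, 49 without GP/M 2, 90 without GP/M 3). The number of Nimrod genes called ranged from 1 to 2 in both comparisons with set 1 and was 0 elsewhere. The median log2 fold change of the Nimrod genes ranged from -0.037 to 0.084 for GP/P against WT, from -0.073 to -0.0072 for GP/M against WT, and from -0.052 to 0.0075 for set 2 against set 1.

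Directions that turned without some library, none of them of a called gene, ranged as follows in log2. For GP/P against WT, nimB2 ranged from -0.091 to 0.070, nimB3 from -0.097 to 0.10, nimB4 from -0.032 to 0.16 and nimB5 from -0.024 to 0.025. For GP/M against WT, nimA ranged from -0.26 to 0.025, nimB1 from -0.053 to 0.19, nimB2 from -0.11 to 0.060 and nimC1 from -0.036 to 0.081. For GP/P against GP/M, nimA ranged from -0.10 to 0.18, nimB2 from -0.066 to 0.092 and nimC2 from -0.16 to 0.0082. In set 3 against set 1, nimB5 ranged from -0.071 to 0.0045, nimC2 from -0.032 to 0.071, Sr-CI from -0.016 to 0.12, Sr-CII from -0.063 to 0.11 and PGRP-LC from -0.052 to 0.10. In set 3 against set 2, nimB2 ranged from -0.016 to 0.058 and nimB4 from -0.15 to 0.066.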
